A study of Mus musculus with 2 samples.

Results

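Described here are 9 mouse genes that move calcium across heart muscle membranes, store it, or build the contacts where it is released and passed on: Atp2a2, Casq2, Asph, Jph2, Cacna2d1, Atp2b1, Stim1, Camk2d and Gja1. They were taken by gene symbol from a table of 10982 genes, and all 9 were listed there. The table came from RNA sequencing of 2 libraries, and both are labelled as neonatal mouse cardiomyocytes, muscle cells cultured from the newborn heart. The cells of 1 library had received a negative control. Those of the other had received an antagomir, an antisense oligonucleotide that blocks a small RNA, directed at FERPIR, a short RNA of the piRNA class. A treatment label reads PBS for both, the tissue label reads heart for both, and neither the time of transfection nor the age in days is given in the sources used here. Values are FPKM, fragments scaled to transcript length and library total. With 1 library per group no difference has a replicate check, and no p-value, SD or interval is given.

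In a heart muscle cell each beat starts when voltage-gated channels let a little calcium in, which opens release channels of the sarcoplasmic reticulum, the internal calcium store. The store is refilled by the SERCA pump, while pumps and exchangers of the outer membrane send the rest out of the cell. Junctophilins hold the store against the outer membrane, calsequestrin buffers calcium inside it, CaMKII kinases tune the channels and pumps, and connexin channels at the ends of the cell pass current to the neighbours.

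Of 10201 genes reaching 1 FPKM in either library, 13.4% had lower FPKM in the antagomir library by at least 1.5-fold. Of the 9 genes described, 4 did. Atp2a2, which encodes a SERCA pump, stood lowest, followed by the channel subunit gene Cacna2d1, the kinase gene Camk2d and the gap junction gene Gja1. The junctophilin gene Jph2 and the calsequestrin gene Casq2 were higher at about the 1.5-fold limit, and Asph, Stim1 and Atp2b1 lay within 1.25-fold. Ratios and folds are on the scale of FPKM + 1, which understates differences of low genes.

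**Figure D1:**
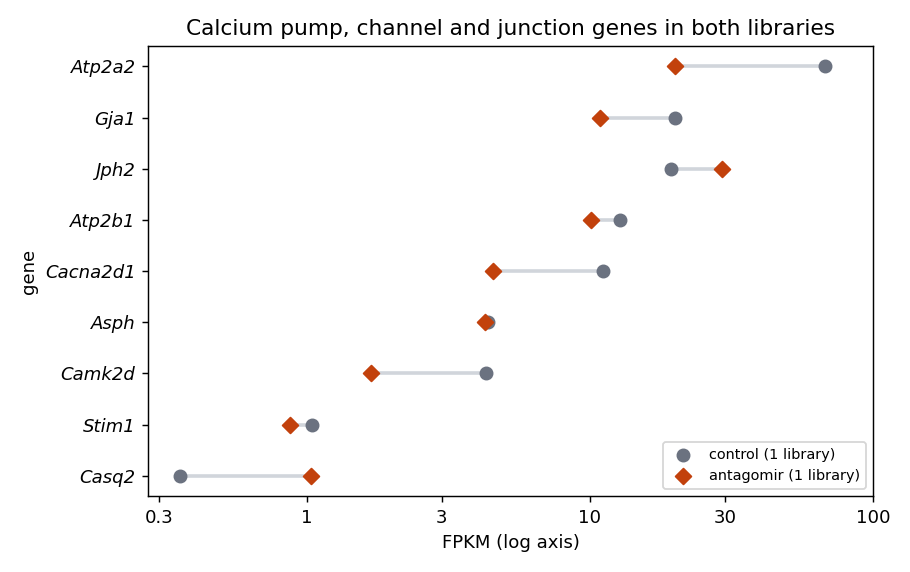
FPKM of the 9 genes, on a log axis, in the control library (circles) and the antagomir library (diamonds), with 1 library per point and genes ordered by their control level. Atp2a2 spans the widest gap on the side of lower antagomir values, from 67.5 to 20.02 FPKM, and the 2 points of Asph nearly coincide.

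To show what lies in front of the genes that stood furthest from equal values, the 250 bases upstream of the RefSeq start site are printed for the 5 of them that have an entry in the promoter table (RefSeq, build GRCm38.p6). Such entries were found for 7 of the 9 genes, with none for Atp2a2 and Asph. Each run is written 5' to 3' on the strand of its gene, and capitals mark matches, on either strand, to the motifs searched.
Cacna2d1, chr5:15934441-15934690, plus strand: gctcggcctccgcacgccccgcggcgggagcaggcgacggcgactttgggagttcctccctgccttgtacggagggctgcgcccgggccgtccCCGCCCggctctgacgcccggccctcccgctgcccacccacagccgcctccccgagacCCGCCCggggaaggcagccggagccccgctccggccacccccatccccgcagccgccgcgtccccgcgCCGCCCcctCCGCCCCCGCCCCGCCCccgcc
Camk2d, chr3:126596701-126596950, plus strand: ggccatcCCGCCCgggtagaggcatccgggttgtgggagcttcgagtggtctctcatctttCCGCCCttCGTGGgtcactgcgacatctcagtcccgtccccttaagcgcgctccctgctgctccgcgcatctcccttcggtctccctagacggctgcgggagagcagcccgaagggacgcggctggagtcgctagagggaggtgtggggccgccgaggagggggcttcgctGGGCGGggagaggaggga
Gja1, chr10:56377050-56377299, plus strand: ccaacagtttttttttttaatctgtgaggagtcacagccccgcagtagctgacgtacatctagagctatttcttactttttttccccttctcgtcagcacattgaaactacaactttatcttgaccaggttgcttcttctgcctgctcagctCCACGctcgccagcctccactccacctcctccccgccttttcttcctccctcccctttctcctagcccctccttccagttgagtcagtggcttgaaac
Jph2, chr2:163397994-163398243, minus strand: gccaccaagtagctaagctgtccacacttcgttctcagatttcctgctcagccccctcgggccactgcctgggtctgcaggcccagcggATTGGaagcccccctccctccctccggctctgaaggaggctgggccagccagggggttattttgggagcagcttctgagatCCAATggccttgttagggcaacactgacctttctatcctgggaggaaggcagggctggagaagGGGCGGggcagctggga
Casq2, chr3:102086165-102086414, plus strand: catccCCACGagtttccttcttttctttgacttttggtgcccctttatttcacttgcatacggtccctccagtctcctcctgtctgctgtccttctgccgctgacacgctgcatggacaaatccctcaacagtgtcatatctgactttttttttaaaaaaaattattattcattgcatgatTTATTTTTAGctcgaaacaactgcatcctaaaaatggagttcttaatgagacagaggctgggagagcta

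The 7 motifs searched were CCAAT alone, the short motif CCACG alone, and both as a pair set 9 bases apart, the element known from genes of endoplasmic reticulum stress. They also included TATAAA, the core of the TATA box, then GGGCGG, the core bound by SP1, and by name the MEF2 site and the CArG box. A match to the pair would count for both of its single motifs too. Of these, GGGCGG was matched 6 times before Cacna2d1, 3 times before Camk2d and once before Jph2, and stands in 32.7% of 32851 promoter windows of this length. CCACG was matched once each before Camk2d, Gja1 and Casq2, against 28.3% of windows, and CCAAT was matched 2 times before Jph2, against 33.8%. The window of Casq2 also holds a match to the MEF2 site, the sequence bound by the muscle factor MEF2, found in 2.92% of windows. TATAAA, the CArG box and the pair were matched in none of the 5, against 12.4%, 1.47% and 0.113% of windows. By base composition the window of Cacna2d1 was 82.4% G and C with a ratio of observed to expected CpG of 0.92, and that of Camk2d 68.4% with 0.79. Gja1 (50.0%, 0.47), Casq2 (41.6%, 0.48) and Jph2 (62.0%, 0.21) lay below a CpG ratio of 0.6, which 34.0% of windows reach. No motif of the 7 was matched before all of Cacna2d1, Camk2d and Gja1. A match describes letters only, and the Camk2d window starts 399 bases inside the gene as GENCODE draws it.

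Among the genes of calcium uptake and storage, Atp2a2 encodes a SERCA pump, which in heart muscle returns calcium to the sarcoplasmic reticulum. The control library gave it 67.5 FPKM and the antagomir library 20.02 FPKM, which is 3.26-fold lower or a log2 ratio of -1.70. The pump gene was thus among the higher genes in both libraries, though less so with the antagomir. Of the 10201 genes that reached 1 FPKM in either library, 0.578% had a lower log2 ratio. In level it exceeded 92.1% of these genes with the control and 75.8% with the antagomir. Whether fewer cells expressed it or each cell held less of it cannot be told apart in RNA from whole cultures. The gene lies on chromosome 5 from 122453513 to 122502225 on the minus strand of GRCm38, and its exons overlap those of the predicted gene Gm43361, so reads of both may be mixed. GENCODE annotates 5 transcripts of Atp2a2, 2 of them coding. The single value per gene does not show which form, or which cells of the culture, it stands for.

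Casq2 encodes cardiac calsequestrin, the main calcium buffer inside the sarcoplasmic reticulum. It was close to the lower edge of the table, at 0.358 FPKM with the control and 1.04 FPKM with the antagomir. That is 1.501-fold higher on the scale of FPKM + 1 (log2 ratio 0.59) and 2.90-fold by the FPKM themselves. Asph, whose transcripts code for aspartyl beta-hydroxylase and also for junctin, a partner of calsequestrin at the release site, and for junctate, was at 4.38 and 4.26 FPKM (log2 ratio -0.03), so both libraries were nearly equal. GENCODE annotates 20 transcripts of Asph, 15 of them coding, so the single value per gene does not show which of these products it stands for. Its exons also overlap those of Clvs1 and Gm25677.

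Jph2, which ties the sarcoplasmic reticulum to the outer membrane in heart muscle, was the most abundant of the 9 genes in the antagomir library. Its level was 19.3 FPKM with the control and 29.3 FPKM with the antagomir, 1.49-fold higher (log2 ratio 0.58), and 11.1% of genes lay above this ratio. With the control, Atp2a2 was highest of the 9, then Gja1 and Jph2 at close levels, Atp2b1, Cacna2d1, Asph and Camk2d at close levels, Stim1 and Casq2. With the antagomir, Jph2 came before Atp2a2, Gja1 and Atp2b1, and Casq2 before Stim1. Whether neighbours in this order differ beyond their spread is unknown without replicates.

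At the outer membrane, Cacna2d1 encodes the alpha2delta-1 subunit that helps bring voltage-gated calcium channels to the cell surface. The control library gave 11.1 FPKM and the antagomir library 4.56 FPKM, 2.18-fold lower, and at this log2 ratio of -1.12 2.74% of genes were lower still. Atp2b1, a plasma membrane pump that expels calcium, had 12.8 and 10.1 FPKM, 1.25-fold lower, and 28.0% of genes had a lower ratio. Stim1, the sensor in the reticulum that opens ORAI channels when the store runs empty, was low in both libraries, at 1.04 and 0.870 FPKM (log2 ratio -0.13). For Stim1, 43.4% of genes had a lower ratio, so its ratio lay nearer the middle of all genes than that of Atp2b1.

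Camk2d encodes the delta form of CaMKII, the main form of this kinase in heart muscle. Its values were 4.28 FPKM with the control and 1.68 FPKM with the antagomir, 1.97-fold lower (log2 ratio -0.98), and 4.07% of genes had a lower ratio. GENCODE annotates 28 transcripts of it, which the table does not separate. Gja1 encodes connexin 43, the gap junction protein of the working heart muscle and of many other cells, fibroblasts among them. It stood at 19.9 and 10.8 FPKM, 1.77-fold lower (log2 ratio -0.82), and 6.65% of genes had a lower ratio.

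Counted together, 4 of the 9 genes were at least 1.5-fold lower, where 13.4% of the 10201 genes were, and 1 was at least 1.5-fold higher, where 10.8% were. At 2-fold, 2 of the 9 were lower (Atp2a2 and Cacna2d1) against 3.79% of all genes, and none was higher against 2.88%. The median log2 ratio of the 9 was -0.32, beside -0.05 for all genes, which had an SD across genes of 0.55. The single gene counted as higher is Casq2 at 1.501-fold, and Jph2 at 1.492-fold lies just under the limit. Centring on the median of all genes gave 4 lower and 2 higher, where 11.6% and 12.3% of all genes were. Equal library totals, taken over all genes but those of ribosomal proteins, hemoglobins and the mitochondrial genome, gave 4 lower and none higher, where 15.1% and 9.28% of all genes were. All 9 genes reached 1 FPKM in at least 1 library, Casq2 through the antagomir library alone and Stim1 through the control library alone. 5 of them reached 5 FPKM. The summed level of the 9 was 140.6 FPKM with the control and 82.6 FPKM with the antagomir, of which Atp2a2 held 48.0% and 24.2%.

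**Figure D2:**
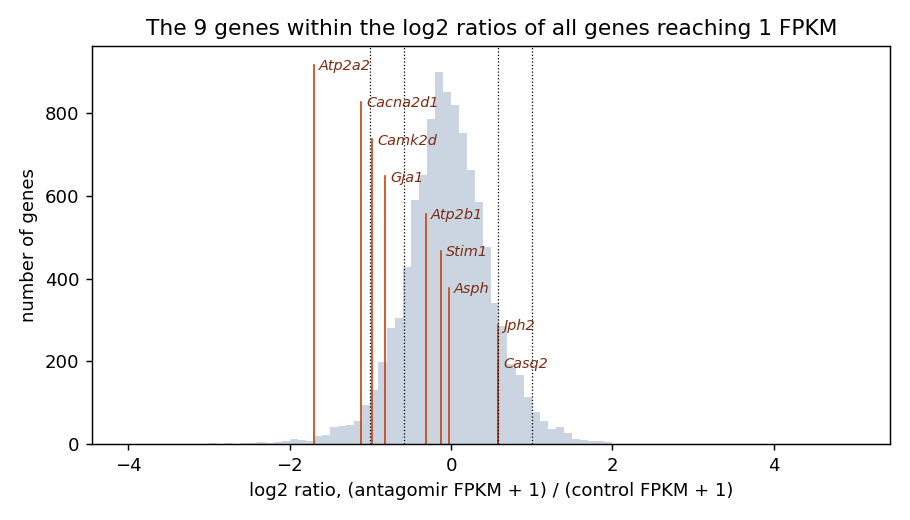
Number of genes (vertical axis) by log2 ratio of antagomir over control (horizontal axis) for the 10201 genes reaching 1 FPKM, with a line at the ratio of each of the 9 genes and dotted lines at 1.5-fold and 2-fold; the height of a line has no meaning. Atp2a2 at -1.70 and Cacna2d1 at -1.12 lie beyond 2-fold on the lower side, and Jph2 and Casq2 stand at the upper 1.5-fold line.

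Across all genes, longer transcripts had lower ratios, from a median of 0.26 in the shortest to -0.20 in the longest of 5 equal groups by length. Of the 9 genes, 5 were in the longest group (Atp2a2, Asph, Cacna2d1, Atp2b1 and Camk2d), 3 in the next (Jph2, Stim1 and Gja1) and Casq2 in the second shortest. With the trend over length and GC content removed, the log2 ratio was -1.56 for Atp2a2, -0.94 for Cacna2d1, -0.84 for Camk2d and -0.75 for Gja1, all 4 still at least 1.5-fold lower. Cacna2d1 then came under 2-fold, and Asph turned from -0.03 to 0.13. Jph2 had 0.49 and Casq2 0.56, both under 1.5-fold.

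**Figure D3:**
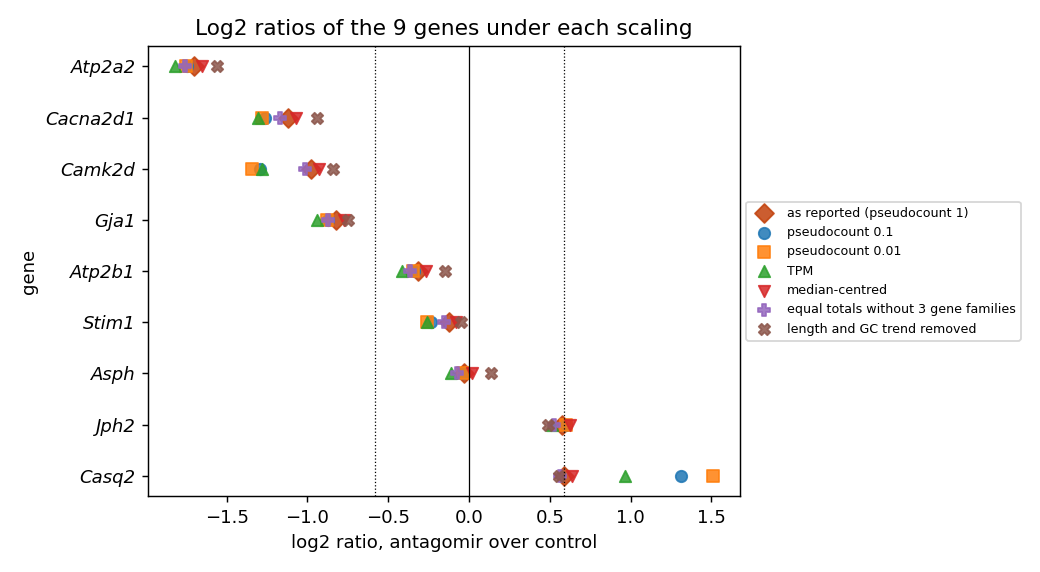
Log2 ratio of antagomir over control (horizontal axis) for each of the 9 genes (rows) as reported and under 6 other scalings, with dotted lines at 1.5-fold. The symbols of Atp2a2, Cacna2d1, Camk2d and Gja1 all lie left of the lower line, from -1.82 to -0.75, while those of Casq2 run from 0.56 to 1.51 and are highest with a pseudocount of 0.01.

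Relatives of the 9 genes show whether a whole family or 1 form differed. Of the SERCA genes, Atp2a2 made up 89.2% of the family's FPKM with the control and 85.9% with the antagomir. Atp2a3, the form of blood, endothelial and secretory cells, was also lower, with 6.78 and 1.58 FPKM (3.02-fold), and Atp2a1, the form of fast skeletal muscle, had 1.39 and 1.70 FPKM. The family together went from 75.6 to 23.3 FPKM. The CaMKII genes differed in opposite directions. Camk2g, the gamma form, was at 4.41 FPKM with the control and 7.95 FPKM with the antagomir, 1.65-fold higher, so the share of Camk2d in the sum of both was 49.2% and then 17.5%, while the sum itself was 8.69 and 9.63 FPKM. The signs of both genes held under all 6 other scalings. In the junctophilin pair Jph1, the skeletal muscle form, had 4.19 and 2.75 FPKM (1.39-fold lower), which put the share of Jph2 at 82.1% and 91.4%.

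Gjc1, which encodes connexin 45, had 4.75 and 4.72 FPKM, so Gja1 made up 80.8% of the FPKM of both connexin genes with the control and 69.7% with the antagomir. Stim2, the second calcium sensor, stood far above Stim1 in both libraries, with 10.1 and 11.2 FPKM. The channel genes that STIM proteins open had 3.07 and 3.35 FPKM (Orai1), 2.39 and 2.88 FPKM (Orai2) and 4.28 and 4.05 FPKM (Orai3), all within 1.15-fold. Atp2b4 had 0.475 and 1.09 FPKM and left Atp2b1 with 96.4% and 90.2% of this pair. Among calcium channel subunits Cacnb1 was 1.73-fold lower (8.996 and 4.78 FPKM) and Cacnb3 had 18.4 and 17.8 FPKM. Of the pore-forming subunits searched for, Cacna1a was the single one listed in the table used here, with 0.917 and 0.153 FPKM, so the partner on which Cacna2d1 acts in heart muscle, Cacna1c, has no value here.

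**Figure D4:**
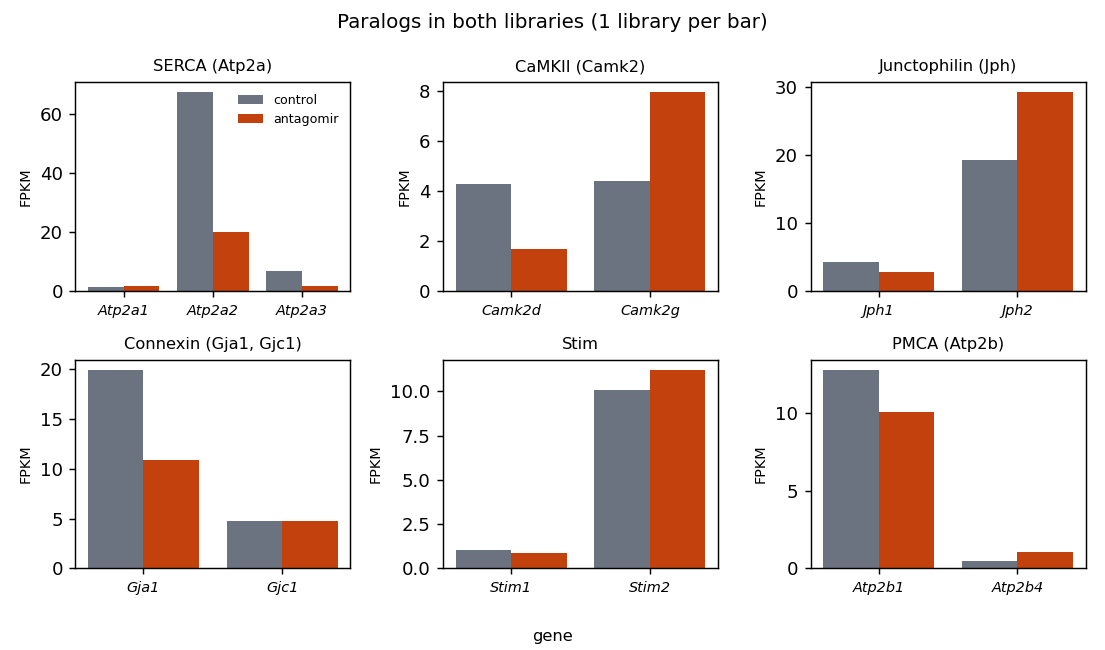
FPKM (vertical axes, from 0) of paralogs in 6 gene families, with 1 bar per library, control in grey and antagomir in orange. Atp2a2 dominates its family in both libraries, and Camk2d and Camk2g stand at 4.28 and 4.41 FPKM with the control but at 1.68 and 7.95 FPKM with the antagomir.

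In 10 wider lists of calcium and junction genes, 82 of 136 genes besides the 9 were listed and 74 reached 1 FPKM. Of these 74, 15 were at least 1.5-fold lower and 6 at least 1.5-fold higher, beside 13.4% and 10.8% of all genes. Among the 6, Rcan3 reached 1 FPKM through the antagomir library alone. The count of lower genes was 12 after centring on the median of all genes, where 11.6% of all genes were lower. With the length and GC trend removed it was also 12, where 13.2% of all genes were. The median log2 ratio of the 74 was -0.06, close to the -0.05 of all genes. Around the pump, Mrln, which encodes the SERCA inhibitor myoregulin, had 1.73 and 6.03 FPKM, 2.58-fold higher (log2 ratio 1.36, or 0.51 with the length and GC trend removed). The inhibitor genes Pln and Sln were not listed in the table used here. Of the release channel genes, Itpr3 was 1.57-fold lower, with 11.04 and 6.68 FPKM. Its log2 ratio was -0.65, or -0.52 with the trend removed, which is under 1.5-fold. Ryr2, the main release channel of the heart, was not listed. Tmem38a, a cation channel that accompanies calcium release, was 1.63-fold higher. S100a1, a calcium sensor that acts on SERCA and the release channel, was 1.501-fold higher (70.3 and 106 FPKM), but removal of the trend turned its log2 ratio from 0.59 to -0.06.

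In the list of calcium storage and luminal proteins, 5 of 9 genes besides Casq2 and Asph were at least 1.5-fold lower and none was higher, beside 13.4% and 10.8% of all genes. This count was taken before removal of the length and GC trend. Calr, a calcium-binding chaperone, had 422 and 112 FPKM, and Hspa5 and Pdia3, folding factors of the endoplasmic reticulum, were 2.21-fold and 2.10-fold lower. Calr, with a log2 ratio of -1.905, stood beside Atp2a2 and Atp2a3 at the low end. Hspa5 and Pdia3, at -1.14 and -1.07, lay near Cacna2d1 instead. Rcn2 and Sdf4, calcium-binding proteins of the secretory pathway, had log2 ratios of 0.00 and 0.01. Of 4 further junctional genes none reached 1.5-fold: Bin1, which shapes T-tubules, had 192 and 196 FPKM, and Jsrp1, a junctional protein known from skeletal muscle, had 61.3 and 84.9 FPKM.

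For uptake into mitochondria, Mcu, the pore of the uniporter, was 1.98-fold lower, with 20.97 and 10.1 FPKM. Smdt1, its small regulatory subunit EMRE, was at 84.7 and 122 FPKM, and its log2 ratio went from 0.52 to -0.07 when the trend was removed. Saraf, which switches off store-operated entry, was 1.54-fold lower. Among genes around CaMKII, Calm3, which encodes calmodulin, the calcium sensor of this kinase, was 1.92-fold higher, with 106 and 206 FPKM. Ppp3ca, a catalytic subunit of calcineurin, was 1.67-fold lower, and Rcan3, a calcineurin regulator, had 0.385 and 2.64 FPKM (2.63-fold higher). At the intercalated disc, where Gja1 works, 2 of 10 other genes were at least 1.5-fold lower, a share near the 13.4% of all genes. They were the desmosome gene Pkp2 (8.51 and 4.56 FPKM, 1.71-fold) and Ctnna1 (165 and 108 FPKM, 1.53-fold). With the length and GC trend removed, Pkp2 had a log2 ratio of -0.76 and Ctnna1 -0.52, the latter under 1.5-fold. Exons of Ctnna1, Atp2a1, Atp2b4, Jph1, Cacna1a, Cacnb1, Orai1, Itpr3, Pdia3, Bin1, Smdt1 and Rcan3 overlap those of another annotated gene, so their values may hold reads of both.

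**Figure D5:**
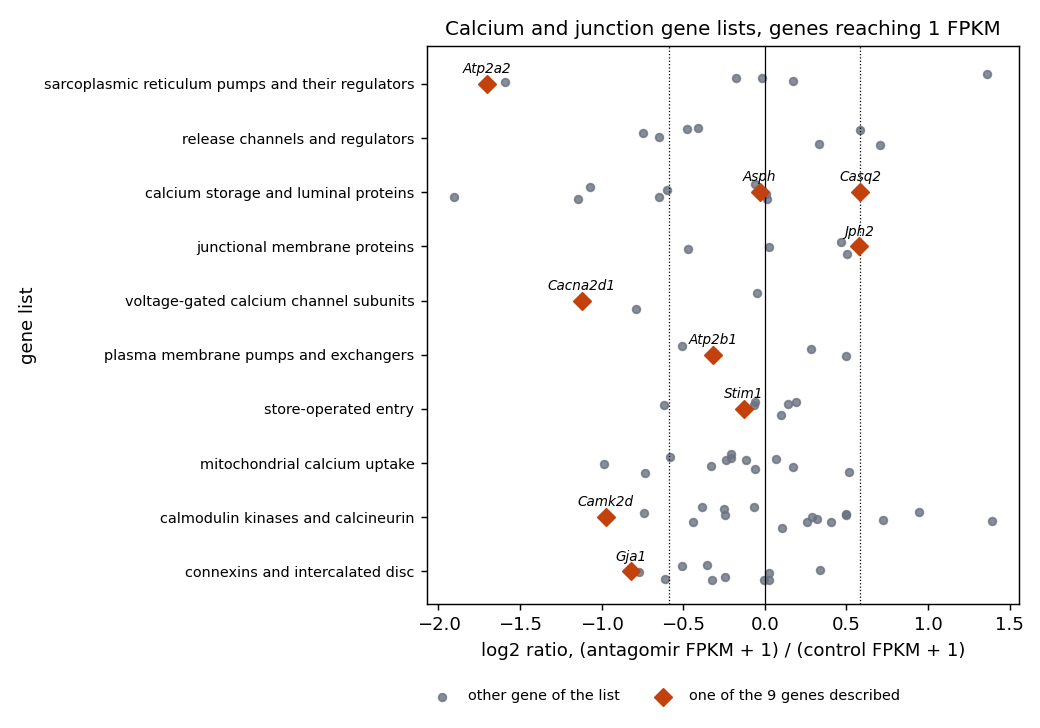
Log2 ratio of antagomir over control (horizontal axis) for genes reaching 1 FPKM in 10 lists (rows), with the 9 genes as named diamonds and the other listed genes as grey circles, spread vertically for legibility; dotted lines mark 1.5-fold. Atp2a2 and Atp2a3 stand together at -1.70 and -1.59, and Camk2d at -0.98 lies opposite Camk2g at 0.73.

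The labelled cell type was checked against its markers. Of 20 cardiomyocyte markers 6 were listed, with summed levels of 15.99 FPKM with the control and 39.1 FPKM with the antagomir. Myh6, Actc1, Ttn, Ryr2 and Pln were not among them. Every listed gene reached at least 0.5005 FPKM in 1 library or both, so unlisted genes may have been left out for a low level. The sources used here do not give the reason, so absence alone does not show that they were low. Tnnt2, cardiac troponin T, had 1.48 and 8.19 FPKM. Of 14 fibroblast markers 9 were listed, summing to 1296 and 1202 FPKM. Vim was the largest part of these sums, with 655 and 730 FPKM, and Col1a1 had 58.5 and 24.2 FPKM. Of 10 smooth muscle and pericyte markers 8 were listed, summing to 1696 and 1331 FPKM. Most of this was Acta2, at 1304 and 845 FPKM, then Des, at 345 and 423 FPKM. Endothelial (1 of 12), leukocyte (2 of 10) and red blood cell (2 of 7) markers were listed at sums of at most 22.0 FPKM in either library, and Pecam1 and Ptprc were not listed. No listed marker was at 0. At 1.5-fold, where 10.8% of all genes were higher and 13.4% lower, 4 of the 6 cardiomyocyte markers were higher and none lower, in the direction of Jph2 and Casq2. Of these 4, Myl4 (0.849 and 2.01 FPKM) reached 1 FPKM through the antagomir library alone. Of the 9 fibroblast markers 3 were lower, Col1a1 among them, in the direction of Atp2a2, Cacna2d1, Camk2d and Gja1, and 1 was higher. Of the 7 smooth muscle and pericyte markers reaching 1 FPKM, 1 was lower (Acta2) and 1 higher (Tagln). The part of the cell make-up in these differences was not tested.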

How the data were processed

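RNA was sequenced from 1 control and 1 antagomir library, grouped by sample title. Extraction used TRIzol per the labels' protocols, and RNA was then selected for polyadenylation and made into libraries with a KAPA stranded kit; the same text also lists ligation of adaptors to both RNA ends. The authors deposited gene-level FPKM, and the submitters' processing notes name cutadapt, HISAT2, StringTie 1.3.3 and build GRCm38. The annotation is not given in the sources used here, nor is the use of strand. Values depend on the library total, so a few abundant genes can shift all others.

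The deposited table had 10992 lines, and values of 10 symbols on several lines were summed, which touched none of the 9 genes. No steps of whole reads were seen in FPKM multiplied by length, so depth is unknown. Ratios set antagomir FPKM + 1 over control FPKM + 1 on a log2 scale, and genes were counted at 1.5-fold and 2-fold among genes reaching 1 FPKM. The sums of FPKM were 295404 and 312806. All 9 loci matched GENCODE M21, which gave the length and GC content of the longest transcript, and lowess curves over both (span 0.3) gave the trend that was removed. Genes whose exons overlap on either strand are uncertain.

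The 9 genes and the lists were chosen with earlier results of these data known. From each list were named up to 2 genes at either end reaching 5 FPKM, any with a 2-fold difference, and relatives of the 9. Alternatives were pseudocounts of 0.1 and 0.01, TPM, median-centring, equal totals without 3 gene families, the trend removal, and a minimum of 5 FPKM or none. Python 3.11.15, pandas 2.3.3, numpy 2.4.6, statsmodels 0.14.6 and matplotlib 3.10.9 were used, and the code was tested on simulated data. Values of some genes of the wider lists are not reported here.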

Additional observations from a re-analysis of the deposited data

How the results depend on the processing

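The lower members kept their count: 4 of the 9 genes were at least 1.5-fold lower in each scaling, beside 11.6% (centred) to 19.5% (TPM) of all genes, and 3 of 5 with a minimum of 5 FPKM, beside 15.8%. The number at least 1.5-fold higher was 1 as reported, 2 with a pseudocount of 0.1 (all genes 14.1%), with 0.01 (14.5%) and after median-centring (12.3%), and 0 after rescaling without 3 gene families (9.28%), with the length and GC trend removed (7.70%) and with a minimum of 5 FPKM (12.5%). The number at least 2-fold lower was 2 as reported, 1 with the trend removed (all genes 4.09%), and 3, Camk2d being added, with pseudocounts of 0.1 (6.22%) and 0.01 (6.63%), as TPM (6.59%) and after the rescaling (4.39%). The median log2 ratio of the 9, -0.32 as reported, was -0.34 with both smaller pseudocounts (0.1 and 0.01), -0.42 as TPM, -0.27 after centring, -0.37 after the rescaling, -0.15 with the trend removed and -0.82 over the 5 genes reaching 5 FPKM. Of 54 values of single genes under 6 alternatives, 52 kept their sign. The other 2 are Asph, at 0.017 after centring and 0.13 with the trend removed. Casq2 went from 0.59 to 1.31 and 1.51 with pseudocounts of 0.1 and 0.01. In the wider lists the lower count, 15 of 74 as reported, was 12 after centring and with the trend removed. It was 17 with a pseudocount of 0.1 (all genes 17.5%) and 20 of 82 as TPM (19.5%). No paired analysis was possible because each group has 1 library. Unknown depth leaves the counting error of low genes, such as Casq2 and Stim1, unmeasured.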
